A study of Rattus norvegicus with 9 samples.

Results

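The fragments AS-tDR-007988, AS-tDR-007592, AS-tDR-007804 and AS-tDR-007471 are 4 of the 530 tRNA-derived small RNAs listed in a rat brain series. They were picked by identifier because their levels after an intracerebral haemorrhage (ICH) were above those of sham-operated rats. All 4 were above 0 in all 9 libraries, as were 311 of the 530 fragments. The values that picked them are the ICH and sham levels, so the difference between these groups is described below and not tested. The open questions were whether the 4 fragments vary together from library to library and where rats given a herbal decoction lie.

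Small RNA was sequenced 21 days after surgery from the brains of Sprague-Dawley rats, all male, in 3 groups of 3 libraries, and the tissue taken surrounded the right globus pallidus. The ICH + BYHWD group had 0.5 U of collagenase type VII injected into the right globus pallidus and was given Buyang Huanwu Decoction (BYHWD), a formula of traditional Chinese medicine, by gavage at 4.36 g/kg daily for 21 days. The ICH group had the same collagenase injection, and no gavage is described for it. The sham group had the same operation with 2.5 µl of saline in place of the enzyme. Collagenase digests the collagen around vessels so that blood leaks into the tissue. It is a model of haemorrhage with a local enzyme injection, and as the labels leave it unsaid whether every library came from its own rat, the spread between libraries may be in part technical. Libraries are numbered 1 to 3 within a group in accession order, and the numbers pair nothing.

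Transfer RNAs deliver amino acids to the ribosome, and nucleases cut them into shorter RNAs. Cuts in the anticodon loop, made by angiogenin under stress, give the longer fragments called tiRNAs, and other cuts give tRNA-derived fragments (tRFs). Some of these RNAs are known to slow translation or to act in gene silencing much as microRNAs do, and their levels are known to change after brain injury. The tables name each fragment only by an identifier, so no parent tRNA, fragment type, sequence or function is given here for any fragment.

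Library totals ran from 530827 to 1066616 tags. Levels are given in TPM, the tag count scaled to a common library total. No listed value above 0 was lower than 76 to 149 tags, or 134 to 152 TPM, depending on the library, as if fragments under a minimum had been set to 0. The 4 fragments together held between 711 tags in sham 2 and 4743 tags in ICH 2. By mean level over the 9 libraries they ranked 129, 168, 226 and 284 of 530, in the order AS-tDR-007988, AS-tDR-007804, AS-tDR-007471 and AS-tDR-007592. Counting alone gives a relative SD of 2.40 to 10.5% for a single value of these fragments. In bulk tissue a change in the cells present and a change of RNA per cell cannot be told apart.

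AS-tDR-007988, the most abundant of the 4, was at 495, 1179 and 619 TPM in ICH + BYHWD 1, 2 and 3. It was at 1552, 1767 and 891 TPM in ICH 1, 2 and 3. It was at 575, 399 and 580 TPM in sham 1, 2 and 3. Every ICH library was above every sham library, and ICH + BYHWD 2 lay inside the ICH range while the other ICH + BYHWD libraries lay below it. The group means were 764 ± 364 TPM in ICH + BYHWD, 1403 ± 457 in ICH and 518 ± 103 in sham (SD, n = 3 each).

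AS-tDR-007804 showed the same order of libraries within ICH + BYHWD and ICH, except that ICH + BYHWD 1 was above ICH + BYHWD 3. It was at 364, 1265 and 322 TPM in ICH + BYHWD 1, 2 and 3, at 977, 1531 and 774 TPM in ICH 1, 2 and 3, and at 436, 287 and 371 TPM in sham 1, 2 and 3. The ICH and sham libraries did not overlap. ICH + BYHWD 1 and 3 both fell inside the sham range, and ICH + BYHWD 2 inside the ICH range. The means were 650 ± 533 TPM in ICH + BYHWD, 1094 ± 392 in ICH and 365 ± 75.1 in sham (SD, n = 3 each).

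AS-tDR-007471 reached its highest level in ICH + BYHWD 2, above every ICH library. It was at 235, 949 and 249 TPM in ICH + BYHWD 1, 2 and 3, at 685, 896 and 525 TPM in ICH 1, 2 and 3, and at 363, 158 and 232 TPM in sham 1, 2 and 3. The ICH libraries were all above the sham libraries, and ICH + BYHWD 1 and 3 lay inside the sham range. In sham 2 its 113 tags stood at 1.06 times the lowest level listed in that library. The means were 478 ± 408 TPM in ICH + BYHWD, 702 ± 186 in ICH and 251 ± 104 in sham (SD, n = 3 each).

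AS-tDR-007592 was the least abundant and the only one of the 4 whose ICH and sham libraries overlapped. It was at 191, 389 and 231 TPM in ICH + BYHWD 1, 2 and 3, at 552, 645 and 285 TPM in ICH 1, 2 and 3, and at 292, 151 and 170 TPM in sham 1, 2 and 3. ICH 3 was thus below sham 1, by less than their counting error, with 95% counting intervals of 251 to 322 TPM in ICH 3 and 255 to 334 TPM in sham 1. In sham 2 its 108 tags stood at 1.01 times the lowest level listed in that library. Its means were 271 ± 104 TPM in ICH + BYHWD, 494 ± 187 in ICH and 204 ± 76.8 in sham (SD, n = 3 each).

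**Figure D1:**
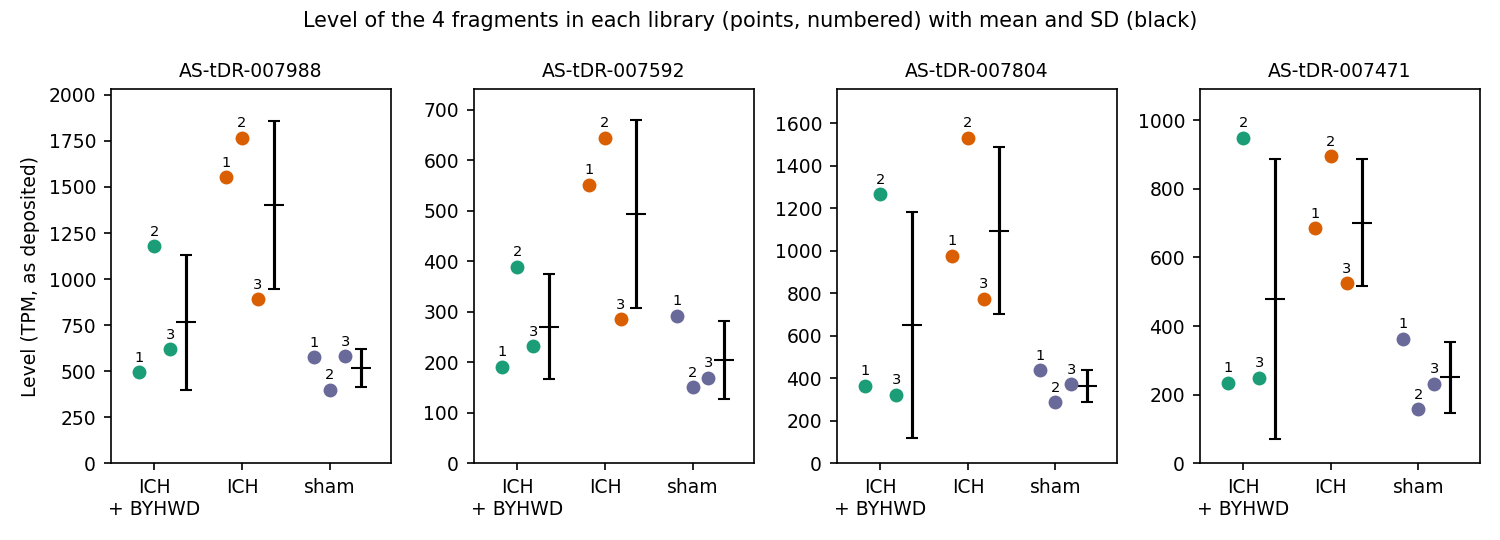
Level in TPM of each of the 4 fragments in every library, as numbered points by group (ICH + BYHWD, ICH, sham), with the group mean and SD in black (n = 3). In each panel ICH + BYHWD 2 lies far above ICH + BYHWD 1 and 3, which lie near or inside the sham range.

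The difference that picked the fragments was close to uniform among them. In an edgeR fit of all 455 fragments that passed a low-count filter, the ICH over sham fold was 3.61 for AS-tDR-007804, with a log2 fold change of 1.85 (SE 0.63). It was 3.31 for AS-tDR-007471, with a log2 value of 1.73 (SE 0.65), and 3.22 for AS-tDR-007988, with a log2 value of 1.69 (SE 0.48). For AS-tDR-007592 it was 2.91, with a log2 value of 1.54 (SE 0.51). In fitted size they ranked 3, 5, 8 and 15 of the 311 fragments above 0 in all libraries. In the same fit, 44 of the 311 fragments (14.1%) had a fitted fold of 2 or more in ICH. The ICH and sham libraries did not overlap, with ICH higher, for 12 of the 311 (3.86%) and for 3 of the 4 fragments. None of these shares says anything of the 4 fragments, since the same contrast picked them.

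Fragments of like size were not among the 4, so the choice was not a cut on the fold alone. AS-tDR-002023, just above AS-tDR-007804 in that order, averaged 1422 TPM in ICH, against 469 TPM in sham, and its fitted fold was 3.65. AS-tDR-008475 (3.35-fold) stood between AS-tDR-007804 and AS-tDR-007471, AS-tDR-002010 (3.30-fold) and AS-tDR-008347 (3.24-fold) between AS-tDR-007471 and AS-tDR-007988, and AS-tDR-005335 (3.22-fold) followed. AS-tDR-010018 and AS-tDR-007722, on either side of AS-tDR-007592, had fitted folds of 2.91 and 2.88. In this comparison edgeR called 0 of 455 fragments (0%) higher and 0 (0%) lower at an adjusted p under 0.05, with 41 at an unadjusted p under 0.05, while DESeq2 called 27 and edgeR without sham 3 called 44.

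The 4 fragments varied together within the groups. To set aside the group difference that picked them, each log2 CPM (tag counts scaled to a common library size with TMM factors) was taken as its deviation from the mean of its own group. ICH + BYHWD 2 was above its group mean by 0.74 for AS-tDR-007988, 0.60 for AS-tDR-007592, 1.27 for AS-tDR-007804 and 1.32 for AS-tDR-007471. ICH 2 was above by 0.75 to 0.91 in all 4, and ICH 3 was below, with deviations from -1.06 to -0.73. The TMM factors were 0.65 in ICH 2 and 1.18 in ICH 3. They raise ICH 2 against ICH 3 alike for every fragment, so part of this gap is scaling. In TPM, without these factors, ICH 2 was also the highest and ICH 3 the lowest ICH library for all 4. All 4 were also below their group mean in sham 2, at -0.61 to -0.36, and above it in sham 1, at 0.16 to 0.60. In ICH 1 and sham 3 the deviations had mixed signs.

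Pearson r of these deviations over the 9 libraries was 0.86 to 0.97 for the 6 pairs, with a mean of 0.91, and Spearman rho was 0.88 to 0.98. The closest pair was AS-tDR-007804 with AS-tDR-007471 (r = 0.97, rho = 0.98), and the loosest was AS-tDR-007592 with AS-tDR-007804 (r = 0.86, rho = 0.90). These are descriptions with no p, since the fragments of a library share its RNA, depth and scaling. Among all 48205 pairs of the 311 fragments, the median r was -0.04, and 5.15% of pairs had an r as high as the lowest of the 6. Each of the 4 fragments had a median r of 0.05 to 0.09 with the other 310 fragments. Without ICH + BYHWD 2 and ICH 3, the libraries farthest from the median deviation, the mean r of the 6 pairs was 0.84 over the remaining 7 libraries and the lowest pair was at 0.75. Of all pairs, 8.88% then had an r at or above the mean of the 6, against 2.89% with all 9 libraries.

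**Figure D2:**
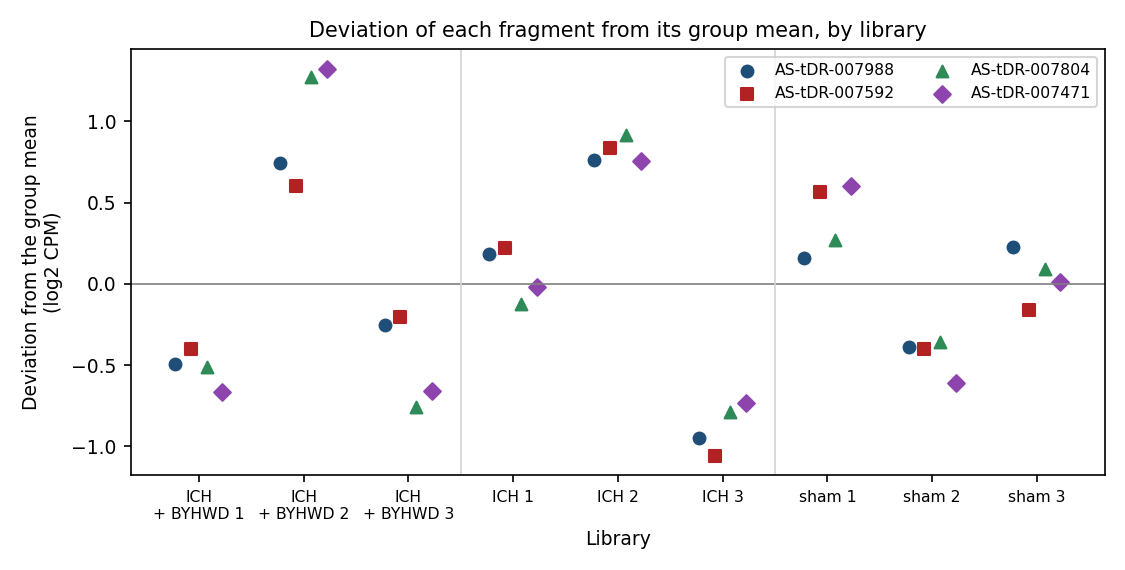
Deviation of each of the 4 fragments from its group mean in log2 CPM (vertical axis) for the 9 libraries (horizontal axis). All 4 symbols lie above 0 in ICH + BYHWD 2, ICH 2 and sham 1 and below 0 in ICH + BYHWD 1 and 3, ICH 3 and sham 2.

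**Figure D3:**
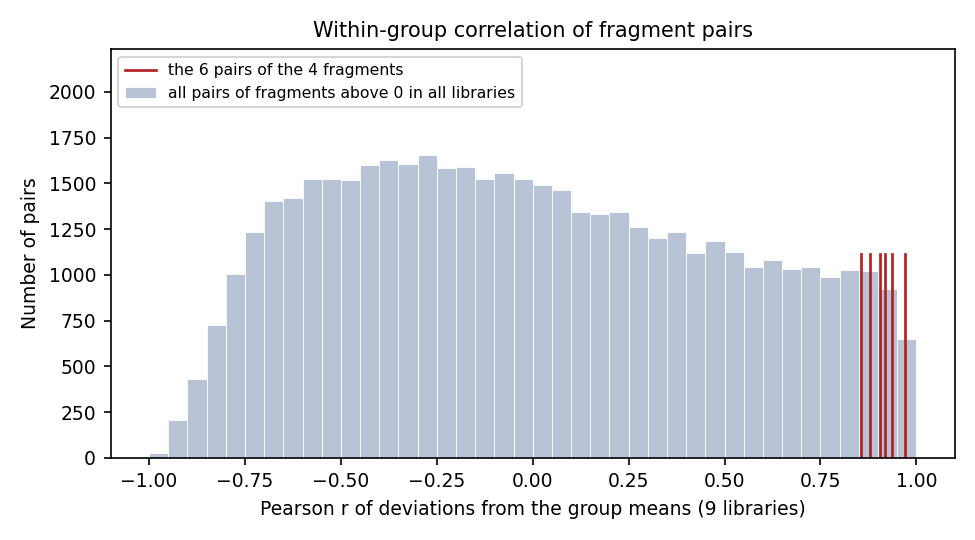
Number of fragment pairs (vertical axis) by Pearson r of their deviations from the group means over 9 libraries (horizontal axis), for all 48205 pairs of the 311 fragments above 0 in all libraries. The red lines mark the 6 pairs of the 4 fragments, which lie between 0.86 and 0.97.

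The proportions among the 4 fragments changed less than their levels over the 9 libraries. The span of levels includes the difference between ICH and sham that picked all 4. Steadier ratios were thus favoured by the choice, and they do not show that the 4 vary together. Across the 9 libraries the level of AS-tDR-007804 spanned 5.34-fold and that of AS-tDR-007471 6.01-fold, but the ratio of AS-tDR-007804 to AS-tDR-007471 stayed between 1.20 in sham 1 and 1.81 in sham 2. The ratio of AS-tDR-007988 to AS-tDR-007592 lay between 1.97 in sham 1 and 3.42 in sham 3, with a median of 2.74. ICH + BYHWD 2 had the lowest ratio of AS-tDR-007988 to AS-tDR-007804 (0.93) and to AS-tDR-007471 (1.24). Those ratios reached 1.92 in ICH + BYHWD 3 and 2.52 in sham 2. The ratio of AS-tDR-007592 to AS-tDR-007804 ran from 0.31 in ICH + BYHWD 2 to 0.72 in ICH + BYHWD 3. Its ratio to AS-tDR-007471 ran from 0.41 in ICH + BYHWD 2 to 0.96 in sham 2. From lowest to highest, the ratios of the 6 pairs spanned 1.51-fold to 2.34-fold. In ICH + BYHWD 2 AS-tDR-007804 and AS-tDR-007471 stood out more than the other two, at 3.69 and 3.92 times the mean of ICH + BYHWD 1 and 3. AS-tDR-007988 was at 2.12 times and AS-tDR-007592 at 1.84 times that mean.

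Few fragments were that much higher in ICH + BYHWD 2. Over the 311 fragments the median of the same ratio was 0.92, and 12 fragments (3.86%) were at 2 or more. AS-tDR-007471, AS-tDR-007804 and AS-tDR-007988 were among those 12, at ranks 4, 5 and 10, and AS-tDR-007592 ranked 17. Ranks 1 to 3 went to AS-tDR-002015, AS-tDR-007816 and AS-tDR-002023. ICH + BYHWD 2 had the smallest total of its group, 683782 tags, against 799227 and 1002327 tags in ICH + BYHWD 1 and 3, and the part of depth in these levels was not tested.

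The 3 ICH + BYHWD libraries thus differed widely in these fragments. Of the 8 values of the 4 fragments in ICH + BYHWD 1 and 3, all 8 were below the lowest ICH library and 7 were inside the sham range. The remaining value, AS-tDR-007988 in ICH + BYHWD 3, lay between the sham and ICH ranges. Setting ICH + BYHWD 2 aside was a choice made after its values were seen, and fragments picked for high ICH levels are favoured to lie below ICH. Over the 311 fragments, ICH + BYHWD 1 and 3 were both below every ICH library for 25 (8.04%), and over the 40 other fragments with a fitted ICH over sham fold of 2 or more for 4 (10%). The coefficient of variation in ICH + BYHWD was 85.4% for AS-tDR-007471, 81.9% for AS-tDR-007804, 47.7% for AS-tDR-007988 and 38.6% for AS-tDR-007592, each above the upper quartile of the 311 fragments, 32.8%. In ICH it was 26.5 to 37.8%, where the median of the 311 fragments was 32.6%. In sham it was 41.4% for AS-tDR-007471, 37.6% for AS-tDR-007592 and 20.6% for AS-tDR-007804, with AS-tDR-007988 just below the last, where the median of the 311 fragments was 15.8% and the upper quartile 22.8%, so AS-tDR-007471 and AS-tDR-007592 varied widely there too.

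Where the decoction group lies was tested as its fitted log2 difference from the midpoint of ICH and sham. With groups of equal size and equal spread, this is separate from the difference between ICH and sham that picked the fragments. The spread was not equal: the median coefficient of variation of the 311 fragments was 32.6% in ICH and 15.8% in sham. A choice for high ICH levels can then favour a value below the midpoint, so the test is not free of the choice. AS-tDR-007592 was at -0.52 from the midpoint (SE 0.44, 95% interval -1.54 to 0.50). AS-tDR-007988 was at -0.44 (SE 0.42, interval -1.40 to 0.52), AS-tDR-007804 at -0.24 (SE 0.54, interval -1.48 to 1.00) and AS-tDR-007471 at -0.09 (SE 0.55, interval -1.36 to 1.19). None passed the edgeR test, with adjusted p values over 455 fragments of 0.858 for AS-tDR-007592, 0.899 for AS-tDR-007988 and 0.998 for the other two. Each interval spans 0, and a p above the threshold does not place the group mean at the midpoint.

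In the same test edgeR called 0 of 455 fragments (0%) higher and 0 (0%) lower, with 10 higher (2.2%) and 16 lower (3.52%) at an unadjusted p under 0.05. DESeq2 called 15 of the 430 that it gave an adjusted p (3.49%) and edgeR without sham 3 called 14 of 479 (2.92%), none of them among the 4. The median of all 455 differences was 0.01, and 220 of them (48.4%) were below 0, against 4 of the 4 fragments. A difference below 0 was also common among fragments of like size in ICH: of the 40 other fragments above 0 in all libraries with a fitted ICH over sham fold of 2 or more, 35 were below the midpoint. Their median difference was -0.26, against -0.34 for the 4. The signs of AS-tDR-007804 and AS-tDR-007471 turned positive when TMM scaling was left out, at 0.056 and 0.20. Leaving out ICH + BYHWD 2 moved all 4 down: without it the differences from the midpoint stood at -0.74 for AS-tDR-007988, -0.71 for AS-tDR-007592, -0.99 for AS-tDR-007804 and -0.91 for AS-tDR-007471, with edgeR adjusted p values of 0.618, 0.675, 0.618 and 0.618.

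**Figure D4:**
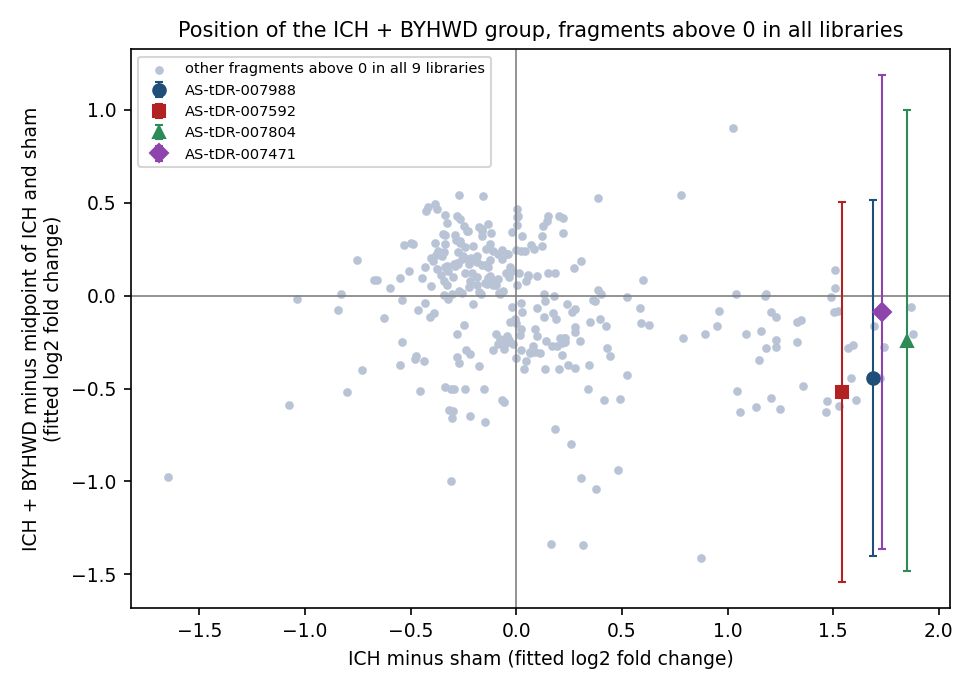
Fitted log2 difference of ICH + BYHWD from the midpoint of ICH and sham (vertical axis) against the fitted log2 fold change of ICH over sham (horizontal axis) for the 311 fragments above 0 in all libraries. The 4 fragments, with 95% intervals, lie to the right because they were picked there, and each interval crosses 0.

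Set directly beside the other groups, the decoction group shares with them the libraries that picked the fragments, so these values carry no test. The fitted log2 fold change of ICH + BYHWD over ICH was -1.29 (SE 0.51) for AS-tDR-007592, -1.29 (SE 0.48) for AS-tDR-007988, -1.17 (SE 0.62) for AS-tDR-007804 and -0.95 (SE 0.64) for AS-tDR-007471. A fitted fold of 2 or more in this direction was seen for 28 of the 311 fragments (9%) and for 3 of the 4. That count depended on the setting: it was 0 of the 4 in 10 of the 19 alternatives. Among them were no scaling, where the values ran from -0.81 to -0.49, and the fits without ICH 1, ICH 2, sham 1, sham 2 or sham 3. The sham libraries are not in this comparison, but leaving any library out also changes the filtered set and the scaling. AS-tDR-007988 was at -0.98 without sham 1, 2 or 3, and also with all libraries and no low-count filter. Without ICH + BYHWD 2 all 4 had a fold of 2 or more, with AS-tDR-007804 at -1.82 and AS-tDR-007471 at -1.69. Every ICH + BYHWD library was below every ICH library for 4 of the 311 (1.29%) and for 0 of the 4. The fitted log2 fold change of ICH + BYHWD over sham was 0.40 (SE 0.47) for AS-tDR-007988, 0.25 (SE 0.50) for AS-tDR-007592, 0.68 (SE 0.62) for AS-tDR-007804 and 0.78 (SE 0.64) for AS-tDR-007471. Every ICH + BYHWD library was above every sham library for 26 of the 311 (8.36%) and for 0 of the 4. Without ICH + BYHWD 2 the values over sham became 0.014, -0.04, -0.16 and -0.14 in the same order.

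The fragments most like the 4 were sought among the other 307 above 0 in all libraries, by Pearson r with the mean profile of the 4 in log2 CPM over the 9 libraries. AS-tDR-002015 (r = 0.96), AS-tDR-002023 (r = 0.96) and AS-tDR-007816 (r = 0.91) came first, and AS-tDR-000062 and AS-tDR-000340 followed with an r of 0.87 each. The median r over the 307 was -0.06, and 3 of them (0.977%) were above 0.9. AS-tDR-002015 was at 557, 3239 and 406 TPM in ICH + BYHWD 1, 2 and 3, at 2062, 3513 and 1222 TPM in ICH 1, 2 and 3, and at 1178, 561 and 550 TPM in sham 1, 2 and 3. It thus shares the high level in ICH + BYHWD 2, by 6.73 times the mean of ICH + BYHWD 1 and 3, and its ICH libraries also lie above its sham libraries. By the deviations from the group means alone, AS-tDR-002015 (r = 0.96), AS-tDR-002023 (r = 0.92), AS-tDR-000396 (r = 0.91), AS-tDR-007816 (r = 0.90) and AS-tDR-009695 (r = 0.87) came first.

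AS-tDR-000396 follows the 4 within groups but not between them. It averaged 1198 ± 337 TPM in ICH + BYHWD, 1112 ± 175 in ICH and 1210 ± 372 in sham (SD, n = 3 each). Likewise AS-tDR-009695 averaged 1134 ± 268, 996 ± 160 and 1218 ± 71.4 TPM in ICH + BYHWD, ICH and sham. In TPM their ICH means were below their sham means. In the TMM-scaled fit the log2 fold change of ICH over sham was 0.10 for AS-tDR-000396 and -0.10 for AS-tDR-009695.

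The 4 fragments did not stand together in the deposited tables. A fragment stands on 1 to 37 rows with the same values, and no source used here explains the repeats. AS-tDR-007471 stood on 37 rows, AS-tDR-007988 on 8, AS-tDR-007804 on 6 and AS-tDR-007592 on 3. No 2 of the 4 stood on adjoining rows, and the nearest approach was 8 rows, between AS-tDR-007988 and AS-tDR-007471. On the rows directly before or after them stood 25 other fragments, of which 17 were above 0 in all libraries.

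By mean TPM, 5 of those 17 were higher in ICH than in sham. The same count was not made over the 311 fragments. Over the 17, the ICH over sham ratio of mean TPM had a median of 0.80 and a range of 0.62 to 2.65. With library totals and no TMM, the median log2 fold change of all 455 fragments was itself at -0.14. In the TMM-scaled fit AS-tDR-007960, AS-tDR-007441 and AS-tDR-009993 were also higher in ICH, with log2 fold changes of 0.14, 0.02 and 0.03. The median of the 311 fragments there was -0.03. The highest ratio was that of AS-tDR-008347, beside AS-tDR-007804, with 15204 ± 8538 TPM in ICH, against 5735 ± 5752 TPM in sham (SD, n = 3 each). In 0 of the 17 were the ICH libraries all above the sham libraries, against 12 of the 311 (3.86%). Among neighbours listed at 0 somewhere, AS-tDR-007583, next to AS-tDR-007592 at 4 places, was listed at 0 in all 3 ICH + BYHWD libraries, at 200, 316 and 223 TPM in ICH 1, 2 and 3, and at 196 TPM in sham 1 and 0 in sham 2 and 3. AS-tDR-007598, next to AS-tDR-007471 at 26 places, was listed only in ICH 1 and ICH 2, at 158 and 222 TPM. Apart from AS-tDR-007583 in ICH 2, their values above 0 were at 158 to 223 TPM. The listing minimum was 134 to 152 TPM, depending on the library, so a 0 does not show an absence of tags. Some neighbours of this kind reached higher levels in some libraries. AS-tDR-010102, beside AS-tDR-007471 at 8 places, was at 368, 208 and 663 TPM in ICH + BYHWD 1, 2 and 3, at 542, 956 and 539 TPM in ICH 1, 2 and 3, and at 360 TPM in sham 3 and 0 in sham 1 and 2. Every ICH library was thus above every sham library, as for AS-tDR-007583. AS-tDR-008789, beside AS-tDR-007988 at 3 places, was at 298, 174 and 314 TPM in ICH + BYHWD 1, 2 and 3, at 424, 582 and 170 TPM in ICH 1, 2 and 3, and at 339 TPM in sham 3 and 0 in sham 1 and 2, so its groups overlapped. In both, ICH + BYHWD 2 was the lowest library of its group, unlike in the 4.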

How the data were processed

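Each of the 9 libraries has 1 table of fragment identifiers with a whole-number tag count and a TPM value, as deposited. Per the labels' protocols, RNA was treated to remove modifications that block ligation or reverse transcription, and inserts of 15 to 50 nt were sequenced for 50 cycles. The submitters' processing notes name FastQC, cutadapt, Novoalign 2.07.11 and the human build hg19. No source used here gives the role of that build, the annotation of fragments or how tags were counted. The deposited TPM equals the tag count times 1 constant per library, checked on every row, and the constant gave the library total. Each table has 2122 rows for 530 fragments, and 1 row per fragment was kept.

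Counts were fitted with edgeR 4.0.16 in R 4.3.3 (filterByExpr with a minimum count of 10, TMM, robust quasi-likelihood F-test, all 9 libraries). Benjamini-Hochberg adjustment covered the 455 fragments past the filter, with a threshold of 0.05. DESeq2 1.42.0 and limma 3.58.1 served as alternatives, and the fit was tested on simulated data. Log2 CPM used a prior count of 2. Standard errors and 95% intervals of edgeR fold changes restate its unadjusted F statistic. Intervals of single TPM values are exact Poisson intervals and cover counting error only.

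The members, lists and comparisons were chosen with earlier results of these data known. Fragments beside the members were named by rule: the 5 most like their mean profile by either correlation, those next to a member in the order of ICH over sham folds, and those on adjoining rows, the last as counts. Row neighbours and fragments of ICH + BYHWD 2 given by name were singled out after their values were seen.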

Additional observations from a re-analysis of the deposited data

How the results depend on the processing

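The count of fragments past an adjusted p of 0.05 was 0 in each comparison and did not change with upper-quartile factors, RLE factors, no scaling, recovered library totals, no low-count filter, only fragments above 0 in all libraries, zeros at the lowest listed count, limma-voom, limma with trend, and a threshold of 0.1. DESeq2 gave 27 calls in ICH against sham. It gave 15 in ICH + BYHWD against the midpoint, 10 against ICH and 19 against sham. Leaving out 1 library gave 0 to 44 in ICH against sham, and 0 to 14, 0 and 0 to 17 for ICH + BYHWD in that order, each highest count without sham 3. The cause was not tested.

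The differences from the midpoint of AS-tDR-007988 and AS-tDR-007592 kept their sign in all 19 alternatives each. The other two changed sign. AS-tDR-007804 was at 0.056 without scaling, 0.041 with recovered totals and 0.0089 with zeros replaced by the lowest count listed. AS-tDR-007471 was at 0.20, 0.19 and 0.15 there, 0.10 with upper-quartile factors and 0.13 without the filter. Without scaling the median of all fragments was itself at 0.26, and with recovered totals at 0.25, so both stayed below it. AS-tDR-007471 was also below the median with upper-quartile factors (0.18) and without the filter (0.17). With zeros replaced by the lowest count the median was 0.03. There AS-tDR-007471 was above the median and AS-tDR-007804 below it. Leaving out 1 library gave -0.99 to 0.19 for AS-tDR-007804 and -0.91 to 0.33 for AS-tDR-007471, positive for AS-tDR-007804 without ICH + BYHWD 1 (0.04), ICH 2 (0.05), sham 1 (0.07) or ICH + BYHWD 3, and for AS-tDR-007471 without ICH + BYHWD 1 (0.23), ICH 1 (0.10), ICH 2 (0.14), sham 1 (0.32), sham 2 (0.01), sham 3 (0.10) or ICH + BYHWD 3. Each fit without 1 library also tested 472 to 479 fragments in place of 455, with new scaling factors. With all 9 libraries and no filter AS-tDR-007804 was already at -0.01, so these shifts cannot be credited to the library alone. The lowest adjusted p of the 76 alternative values was 0.512.

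The fitted ICH over sham log2 fold changes ran from 1.08 (AS-tDR-007592 without ICH 2) to 2.16 (AS-tDR-007804 without ICH 3). The mean r of the 6 pairs was 0.88 to 0.93 without 1 library, 0.88 without scaling or with recovered totals, and 0.84 without the 2 libraries farthest from the median, a setting chosen after seeing the data. No paired analysis was possible because the labels share no replicate number across groups. AS-tDR-007592 in sham 2 and 3 and AS-tDR-007471 in sham 2 lie near the listing minimum. In ICH + BYHWD 1 and 3, AS-tDR-007592 stood at only 1.29 and 1.56 times the lowest level listed in the library. AS-tDR-007471 stood at 1.58 and 1.68 times that level there, and at 1.62 times in sham 3.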
